A study of Mus musculus with 15 samples.

Results

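The replication-dependent histone genes were followed through 15 single mouse oocytes. Members were all genes whose symbol begins with Hist1h, Hist2h, Hist3h or Hist4h in the GENCODE M21 annotation. The prefix held 70 symbols. Leaving out 3 pseudogenes gave 67 genes, matched by Ensembl gene ID to the 28785 gene IDs with counts. They comprise 6 H1, 18 H2A, 18 H2B, 12 H3 and 13 H4 genes. Annotated positions place 54 of them on chromosome 13, 10 on chromosome 3, 2 on chromosome 11 and 1 on chromosome 6. The newer RefSeq symbols are used below, such as H1f1 for Hist1h1a.

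The study read RNA from 9 oocytes at the germinal vesicle (GV) stage, before meiosis resumes, and from 6 eggs arrested at metaphase II (MII). Females were 6 to 8 weeks old and were primed with PMSG (7 IU), a gonadotropin that makes follicles grow, and GV oocytes were taken 44 h afterwards. For MII eggs, 7 IU of human chorionic gonadotropin followed PMSG by about 48 h, and the eggs were freed from their cumulus by 300 IU/mL hyaluronidase 20 h later. MATQ-seq starts from total RNA and primes along the whole molecule, so it can read RNAs without a poly(A) tail. Neither the strain nor the mouse behind each oocyte is named, no group carries a genotype, and every MII egg had the second hormone. Each stage was therefore treated as 1 sample, and no test between stages was made. The files of GV1 to GV6 have column headers beginning with Y, those of GV7 to GV9 with E, and those of MII share another header. The meaning of these headers was not given in the sources used here. Since MII has a header of its own, the stage and the set of files cannot be told apart.

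Replication-dependent histones package newly copied DNA, and their genes are transcribed mainly in S phase. Their mRNAs end in a stem-loop in place of a poly(A) tail, and stem-loop binding protein (SLBP) holds that stem-loop through processing, translation and decay. Oocytes do not replicate DNA while they grow or mature, yet they store histone mRNA and protein for the first cell cycles of the embryo.

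The stem-loop is the shared end of these mRNAs, and 46 of the 67 annotated transcript models hold a 16-base copy of it. The examples below are abundant members (H1f1, H3c15, H4c3 and H4f16) and H2B and H3 copies whose values are described further on. Sequences come from the GENCODE M21 transcripts on GRCm38, 5′ to 3′ on the gene's own strand, with the stem-loop in capitals.
H1f1 (chr13:23764387-23764406, plus strand): ccaacGGCTCTTTTCAGAGC
H3c15 (chr3:96238480-96238505, minus strand): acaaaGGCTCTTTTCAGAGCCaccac
H3c7 (chr13:23544927-23544952, plus strand): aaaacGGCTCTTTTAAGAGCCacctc
H3c6 (chr13:23561898-23561923, minus strand): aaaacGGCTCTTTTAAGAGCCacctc
H2bc7 (chr13:23573760-23573785, minus strand): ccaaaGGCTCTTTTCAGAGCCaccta
H2bc14 (chr13:21722501-21722526, plus strand): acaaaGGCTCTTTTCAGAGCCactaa
H4c3 (chr13:23698084-23698109, minus strand): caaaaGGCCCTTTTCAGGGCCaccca
H4f16 (chr6:136803993-136804018, minus strand): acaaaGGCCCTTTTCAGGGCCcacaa
The H1f1 model ends 15 bases into its stem-loop and is not among the 46. The form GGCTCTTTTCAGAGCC occurred in 26 models, 3 of H1, 10 of H2A, 8 of H2B and 5 of H3. Of the 12 H4 models with a stem-loop, 7 had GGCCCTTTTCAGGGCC, and no H4 form was found in another class. The H4f16 model runs 2445 bases past its stem-loop. The models of H2ac1 and H2bc1 hold no stem-loop. Both end 3 bases after the annotated coding sequence, so a stem-loop farther on could not be found in them. Some other models without one end there too, such as those of H2bc13, H2bc15 and H3c10.

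H2ac1 and H2bc1 encode TH2A and TH2B, variants best known from the testis and also made in oocytes. They lie head to head, with 280 bases between their annotated starts. The shared promoter is shown because the counts of this pair differed in proportion between the stages. These are the 250 bases before the H2ac1 start (RefSeq, GRCm38.p6, plus strand, chr13:23934187-23934436), with 3 kinds of motif in capitals, on either strand: the CCAAT box, the TATA box (searched as TATAAA) and the octamer (searched as ATTTGCAT).
H2ac1 promoter: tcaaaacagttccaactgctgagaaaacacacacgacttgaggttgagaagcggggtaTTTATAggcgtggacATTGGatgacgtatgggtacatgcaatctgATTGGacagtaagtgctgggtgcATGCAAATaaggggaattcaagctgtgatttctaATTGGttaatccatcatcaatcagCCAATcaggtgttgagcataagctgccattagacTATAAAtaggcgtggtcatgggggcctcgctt
The window holds 4 CCAAT boxes, 2 TATA boxes and 1 octamer. The octamer, known from H2B promoters, occurred in 7 of 18 H2A and 7 of 16 H2B promoters with a RefSeq entry and in none of the 6 H1, 10 H3 and 12 H4 promoters. It occurred in 2.0% of 27025 promoters of the same length. A CCAAT box was present in every H1, H2A, H2B and H3 promoter listed and in 3 of 12 of H4, against 41.1% of all. The TATA box was present in 4 of 6 H1, 11 of 18 H2A, 8 of 16 H2B, 4 of 10 H3 and 8 of 12 H4 promoters, against 15.7% of all. These letter matches do not overlap each other in the printed window and are descriptions of sequence only.

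Each GV oocyte had 3687610 to 7103063 counts and each MII egg 808641 to 2348281. One gene ID without an M21 symbol, ENSMUSG00000119584, took 15.75% to 61.2% of the MII counts, 3.433% to 11.18% of those of GV7 to GV9 and none in GV1 to GV6. It was left out of all totals. Levels are given as CPM, the share of each oocyte's remaining counts on the usual scale. Those remaining counts were 3275485 to 7103063 per GV oocyte, with 536101 to 1277878 per MII egg. The labelled cell type matched its markers, since 13 or 14 of 14 oocyte genes had counts in every oocyte.

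Of the 67 histone genes, 62 had a count in some oocyte. H2ac18, H2ac19, H2bc18, H3c13 and H3c14 were listed in none. In these 5 genes, every 50-base stretch of the annotated transcript also occurs in another gene, and in no other member was this so. The handling of reads that match several genes was not given in the sources used here, so the 0 of these 5 is not evidence of silence. The level reached 5 CPM in at least 1 stage for 25 members, called measured below. Their share of 50-base stretches found in no other gene was 10.2% to 100%, with a median of 68.0%. The 37 others with counts had a median of 42.0%. Values of single copies are uncertain for this reason. Sums by class are less so only if shared reads were split among the copies of a class. If such reads were dropped, the sums miss them too, and not equally in each class.

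**Figure D1:**
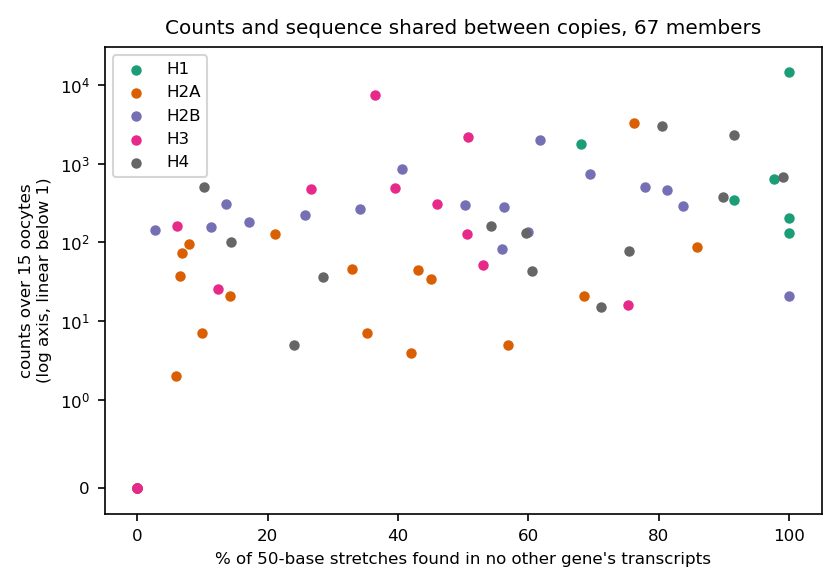
Counts over 15 oocytes for the 67 histone genes (vertical log axis, linear below 1) against the percentage of their 50-base stretches that occur in no other gene (horizontal axis), 1 point per gene, coloured by histone class. The 5 genes at 0% have no counts and lie on the same spot. H1f1, at 100%, has the most counts.

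A count was present for 41 to 57 members in each GV oocyte, and for 18 to 30 in each MII egg. After every oocyte was thinned to 536101 counts, GV oocytes held 26 to 42 members and MII eggs 18 to 26. The ranges then met only at 26, in GV7 and MII2. The gap in detection was smaller than before thinning, and every other MII egg still lay below every GV oocyte. Over all gene IDs, before thinning, 15062 to 18853 had counts in each GV oocyte and 9617 to 13873 in each MII egg. Detection over all genes was not computed after thinning, so the gap cannot be read as particular to histone genes.

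Together the 67 genes held 982.5 CPM in GV, with an exact 95% Poisson interval of 973.2 to 991.9. They held 769.7 CPM in MII (747.6 to 792.4). These intervals cover counting error only, since PCR copies were counted without known molecular identifiers. Single oocytes varied far more. The sum was 499.7 to 3143 CPM in GV1 to GV6 (median 627.2), and 509.5, 929.9 and 635.9 CPM in GV7, GV8 and GV9. In MII it was 432.7 to 1838 CPM (median 555.5). The stages overlapped, and GV4 and MII5 were the highest of their stages. Ratios below are log2 of MII over GV from counts summed per stage plus 0.5, relative to the median of 10410 measured genes, whose own raw log2 ratio was −0.29. The spread beside each ratio combines the SDs over oocytes of both stages (n = 9 and n = 6). The summed ratio was −0.07 (spread 1.15), or 0.44 without GV4 and −0.42 without MII5. The summed level of the family did not differ between stages beyond the spread between oocytes. Fewer copies per cell and a smaller share of the cell's RNA cannot be told apart in these values.

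**Figure D2:**
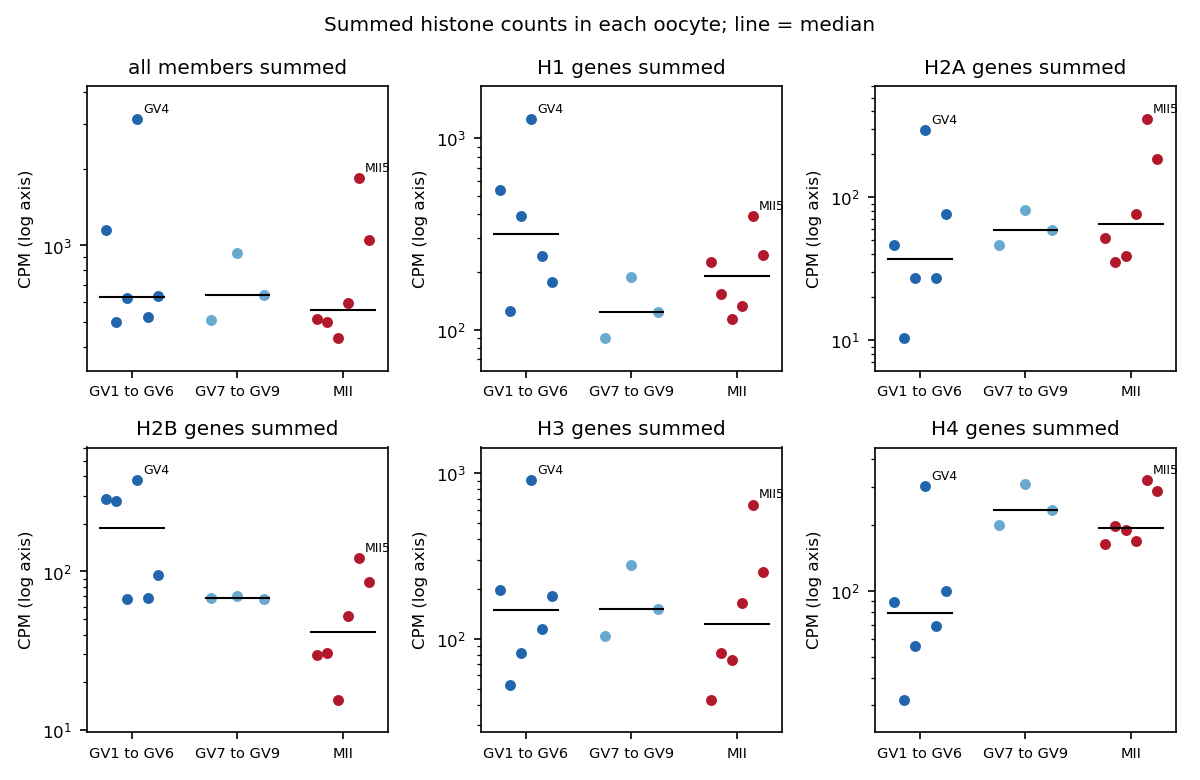
Summed CPM (vertical log axis) of all 67 histone genes and of each class in every oocyte, 1 point per oocyte, for GV1 to GV6, GV7 to GV9 and MII, with lines at the medians. GV4 has the highest sum of all members at 3143 CPM, and MII5 is the highest MII egg at 1838 CPM.

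The make-up of the histone counts differed more than their sum. H1 held 38.53% of GV and 25.11% of MII histone counts, H2A 7.619% and 14.46%, H2B 15.68% and 6.848%, H3 23.7% and 25.4%, and H4 14.48% and 28.18%. The GV files themselves disagreed, most of all for H1 and H4. H1 held 42.63% in GV1 to GV6 and 19.37% in GV7 to GV9, and H4 held 9.883% and 35.93%. The MII shares of H1 and H4 lay between those of the GV sets. H2B held 16.91% in GV1 to GV6 and 9.907% in GV7 to GV9, so the GV sets differed for it too, both above MII. GV4 alone supplied 16581 of the 42287 GV histone counts, which weights the GV shares.

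Linker histones (H1) bind the DNA between nucleosomes. Their sum was 378.5 CPM in GV and 193.3 CPM in MII, which gives a ratio of −0.68 (spread 1.32). With GV1 to GV6 alone it was −1.0 and with GV7 to GV9 alone 0.75, so its direction depended on the GV files used. H1f1, which encodes H1.1, supplied 82.13% of H1 counts in GV and 87.2% in MII. It also had the highest level per length of the 25 measured members in GV, 419.6 CPM per kilobase of exon. H1f1 was at 104.1 to 1111 CPM in GV1 to GV6 (median 269.0), and at 36.48, 124.4 and 60.75 CPM in GV7, GV8 and GV9. In MII it was at 100.2 to 331.7 CPM (median 169.5). The stages overlapped, and 2 of the GV7 to GV9 oocytes lay below every MII egg. Its ratio of −0.60 (spread 1.59) was 0.02 without GV4. H1f4, encoding H1.4, was lower in MII at 12.63 CPM against 38.89 CPM, with a ratio of −1.33 (spread 1.80). Either GV set alone gave much the same, −1.28 for GV1 to GV6 and −1.61 for GV7 to GV9. The H1f4 and H2bc6 models overlap on the same strand, so reads could be split between them. H1f2 and H1f3, encoding H1.2 and H1.3, had ratios of −0.99 and −0.80. H1f2 passed 2-fold without GV2, GV3, GV6, GV7, MII2 or MII5 (−1.62 without MII5), and H1f3 without MII2 (−1.03). H1f5 had 203 counts in GV and 0 in MII, but 0 in GV7 to GV9 too. Its counts lay mostly in GV1 (63), GV4 (73) and GV6 (65). The testis linker histone H1f6 had 117 counts in GV and 16 in MII, with 94 in GV4, 15 in MII5 and 0 in GV7 to GV9.

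Most H2A counts came from H2ac1, 82.74% in GV (47.73% to 91.16% by oocyte) and 91.23% in MII. For H2ac1, 76.2% of 50-base stretches occur in no other gene, against 85.9% for H2ac6 and 0% to 68.5% for other H2A genes. The H2ac1 share of the class may therefore depend on how shared reads were handled, which was not given in the sources used here. H2ac1 was the single measured H2A gene. It was at 4.925 to 247.6 CPM in GV1 to GV6 (median 25.59), and at 42.09, 73.48 and 53.73 CPM in GV7, GV8 and GV9. In MII it was at 29.74 to 329.1 CPM (median 58.67), with overlapping ranges. The ratio was 1.0 (spread 1.99), just inside the limit of 2-fold. It passed that limit without GV4 (1.76), GV6, GV8, MII1, MII2, MII3 or MII4 (1.01 to 1.27 for these 6). It was 0.39 without MII5, and −0.18 without MII5 and MII6, the opposite direction. The H2A sum had a ratio of 0.86 (spread 1.84), and 1.60, 1.12 and 1.08 without GV4, MII2 and MII3. It was 0.26 without MII5, and −0.25 without MII5 and MII6. Its divergent partner H2bc1 went the other way. H2bc1 was at 11.86 to 133.1 CPM in GV1 to GV6 (median 28.62), and at 58.68, 34.40 and 50.07 CPM in GV7, GV8 and GV9. MII eggs held it at 4.707 to 64.04 CPM (median 9.486). The ratio was −1.08 (spread 1.75). It moved to −1.87 without MII5, and to −0.63 without GV4, inside 2-fold, as it also was without MII1, MII2, MII3 or MII4 (−0.96, −0.88, −0.94 and −0.85).

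The quotient of H2ac1 to H2bc1 counts within an oocyte needs no scaling between libraries. The pair was picked out after its values were seen. The quotient was 2.404, 0.4038, 1.103, 1.86, 0.6083 and 1.468 in GV1 to GV6. It was 0.7174, 2.136 and 1.073 in GV7 to GV9. In MII1 to MII6 it was 9.333, 3.455, 3.25, 13.83, 5.14 and 8.316. Every MII egg lay above every GV oocyte, although the exact binomial 95% intervals of MII1, MII2 and MII3, with 3, 11 and 12 H2bc1 counts, reach down to 2.883, 1.73 and 1.667. From summed counts the quotient was 1.405 in GV (1.324 to 1.491) and 5.97 in MII (4.829 to 7.446), 4.25-fold apart. The fold was 4.001 with GV1 to GV6 as the base and 5.096 with GV7 to GV9. Among all 300 pairs of measured members, 5 had quotients that did not overlap between stages, 1.67%. Besides H2ac1 with H2bc1, these were H2ac1 with H3c6, and H4f16 with H2bc1, H2bc15 and H3c6. The share over pairs of all measured genes was not computed, so this number cannot be read as particular to histone genes. By CPM of single genes, 1.32% of all measured genes were lower in every MII egg than in every GV oocyte, and 0.768% higher. Over coding sequence, H2ac1 had a median identity of 83.8% to other H2A members (highest 84.6%) and H2bc1 of 87.1% to other H2B members (highest 88.7%). By stretches of 50 bases, 76.2% of H2ac1 and 61.8% of H2bc1 occur in no other gene, on either side of the median of 68.0% for measured members. A predicted gene, Gm44344, overlaps H2ac1 on the opposite strand, and the use of strand in counting was not given in the sources used here.

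**Figure D3:**
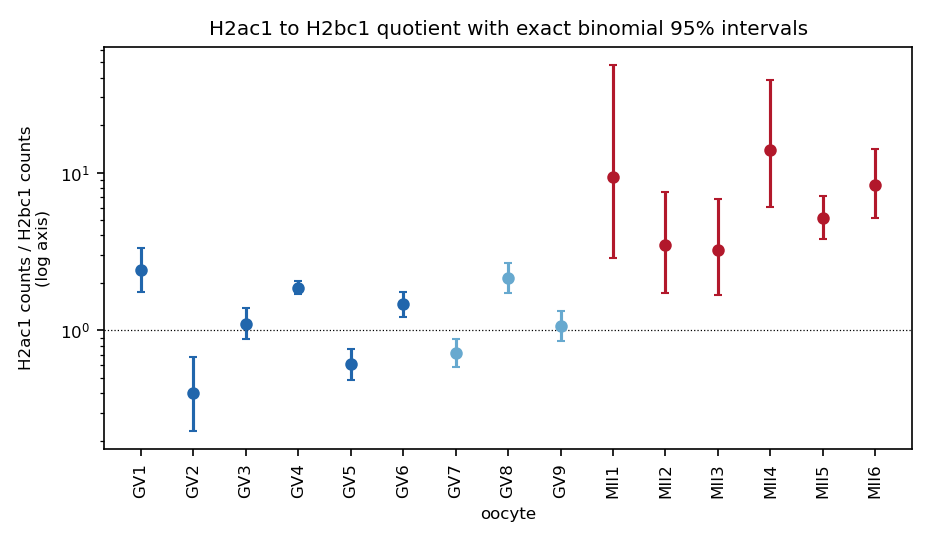
Quotient of H2ac1 to H2bc1 counts (vertical log axis) in each of the 15 oocytes (horizontal axis: GV1 to GV6 dark blue, GV7 to GV9 light blue, MII red), with exact binomial 95% intervals for counting error. The highest GV value is 2.404 and the lowest MII value 3.25.

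H2B, which pairs with H2A in the nucleosome, was the class with the lowest ratio of sums, −1.26 (spread 1.5). Its sum was 154.0 CPM in GV (150.4 to 157.8). The MII sum was 52.71 CPM (47.03 to 58.88). With GV1 to GV6 alone the ratio was −1.54, with GV7 to GV9 alone −0.16, and without GV4 −0.96. Of 10 measured H2B genes, 8 were at least 2-fold lower in MII, against 15.8% of all measured genes: H2bc1, H2bc6, H2bc7, H2bc8, H2bc9, H2bc14, H2bc15 and H2bu2. H2bc6, H2bc7, H2bc8, H2bc9, H2bc14, H2bc15 and H2bu2 were measured only through their GV level, so a low MII value was part of how they entered the count. H2bc4 had a ratio of −0.84 (spread 1.91), −1.22 without MII5 and −1.15 without MII6, and H2bc11 of 0.57 (spread 2.41), or 1.31 without GV4. H2bc9 was at −1.54 (spread 2.38), −2.58 without MII5 and 0.06 against GV7 to GV9.

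For 6 of these 8 genes GV1 and GV2 were the highest GV oocytes, though GV4 came close for H2bu2 (28.44 CPM, against 29.76 and 34.00). H2bc14 was at 23.93 CPM in GV1, 39.16 in GV2, 0.1896 in GV4 and 0 in the other GV oocytes. H2bc7 was at 22.06 CPM in GV1 and 29.55 in GV2, and at 0 to 3.097 in the other GV oocytes. H2bc6 was at 27.88 and 32.13 CPM in GV1 and GV2, and at no more than 0.9479 in the others. None of H2bc7, H2bc8 and H2bc14 had a count in MII, which makes them at least 12.1-fold, 13.66-fold and 13.02-fold lower in CPM against a floor of 3 counts over the MII eggs. These limits rest on GV1 and GV2. The fitted ratio, which depends on the pseudocount, moved from −5.90 to −5.12 for H2bc7 and from −6.0 to −4.88 for H2bc14 without GV2, and from −6.07 to −5.45 for H2bc8 without GV1. Without both it was −3.22 for H2bc7 and −3.84 for H2bc8. H2bc6 had 3 counts in MII and was 13.06-fold lower (counting interval 4.424 to 63.72). H2bc15 had 2 and was 21.25-fold lower (5.833 to 176.2), and H2bu2, from the chromosome 11 group, had 3 and was 23.32-fold lower (7.934 to 113.5). Only 13.6% of the 50-base stretches of H2bc15 occur in no other gene, against 83.7% for H2bc6 and 77.9% for H2bu2. Without GV1 and GV2 together, H2bc6 turned to a ratio of 0.81, and H2bc14 kept too few counts for a ratio. Leaving out MII2 moved H2bc6 from −3.20 to −5.64, and leaving out GV1 or GV2 moved it to −2.48 or −2.41. Leaving out MII4 moved H2bc15 from −3.80 to −5.80.

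GV1 and GV2 were both above every other GV oocyte for 6 of 25 measured members, against 8.07% of all measured genes. These 6 were H2bc6, H2bc7, H2bc8, H2bc14, H2bc15 and H2bu2, all among the 10 measured H2B genes. H2B made up 24.77% of the histone counts in GV1 and 55.98% in GV2, and 3.593% to 8.816% in the MII eggs. Theca, stroma and oviduct markers were also highest in these GV oocytes. The 8 theca and stroma markers summed to 18.52 CPM in GV1 and 27.2 CPM in GV2, with 6 of 8 detected in each, and to 0 to 4.954 CPM with at most 2 detected in the other GV oocytes. The steroidogenic enzyme gene Cyp17a1 was at 0 in all. Of 7 oviduct markers, 6 were detected in GV1 and 5 in GV2, summing to 16.85 and 18.29 CPM, against 0 to 12.51 CPM elsewhere in GV, the top being GV4 from Tppp3 alone. Of 18 cumulus and granulosa markers, 15 were detected in GV1 and 13 in GV2, summing to 377.5 and 144.0 CPM, against 103.5 to 181.7 CPM with 7 to 14 detected in the other GV oocytes. Single markers of this list went different ways. Nr5a2, the most abundant, was at 115.3 CPM in GV1 and 68.01 CPM in GV2, inside the range of the other GV oocytes (48.91 to 131.6 CPM). So was Amh, at 17.89 and 1.407 CPM against 0 to 23.72 CPM. The granulosa factor Foxl2 was at 18.73 CPM in GV1 and 20.4 CPM in GV2, and at no more than 1.015 CPM elsewhere in GV. The inhibin gene Inha was at 145.2 CPM in GV1 and 0 in GV2. The 8 blood and immune markers summed to 0 in GV1 and 0.469 CPM in GV2. The part of such cells in the H2B values was not tested.

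H3 forms the core tetramer with H4. The H3 sum was 232.8 CPM in GV and 195.5 CPM in MII, with a ratio of 0.03 (spread 1.84), 0.76 without GV4 and −0.60 without MII5. H3c15, the main H3 gene, supplied 64.07% of H3 counts in GV and 79.16% in MII. It was at 43.78 to 538.2 CPM in GV1 to GV6 (median 86.54), and at 89.03, 249.3 and 119.4 CPM in GV7, GV8 and GV9. The MII eggs held 20.52 to 584.0 CPM (median 93.84), so the stages overlapped widely. Its ratio was 0.34 (spread 2.08), 0.97 without GV4 and −0.46 without MII5. Only 36.5% of its 50-base stretches were its own, and its closest copy by coding sequence, H3c13 (99.8% identity), had no counts. H3c6 differed from its class. It had 477 counts in GV, in 8 of 9 oocytes, and 1 count in MII, in MII6. That was a 65.82-fold lower CPM (11.76 to 2605), or a ratio of −5.17 (−6.5 without MII6). It was −5.42 with GV1 to GV6 alone and −4.28 with GV7 to GV9 alone. Only 26.6% of the 50-base stretches of H3c6 occur in no other gene, and H3c7 is its closest copy by coding sequence (98.8% identity). How reads were assigned between such copies was not given, so a loss of this copy alone cannot be read from its counts. H3c7, whose printed stem-loop stretch is the same as that of H3c6, had 47.19 CPM in GV against 27.11 CPM in MII. Its ratio was −0.51 (spread 2.74) and 0.55 without GV4. GV1 to GV6 alone gave −0.95, and GV7 to GV9 alone, with 16 counts, gave 4.37. H3c2 was at −1.69 (spread 1.95), but at −0.64 without GV4 and 0.63 against GV7 to GV9. H3c8 was at 0.57 (spread 2.31) and −0.86 without MII5.

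H4, the partner of H3, had a ratio of sums of 0.89 (spread 1.18), close to the 0.86 of H2A, with 142.2 CPM in GV (138.7 to 145.9). The MII level was 216.9 CPM (205.2 to 229.1). With GV1 to GV6 alone the ratio was 1.28, with GV7 to GV9 alone 0.02. It passed 2-fold without GV4 (1.11) or GV8 (1.05). H4c3 differed between the GV file sets, except that GV4 lay close to GV7. It was at 14.36, 2.345, 5.350, 108.2, 11.33 and 17.74 CPM in GV1 to GV6, and at 111.0, 178.6 and 128.5 CPM in GV7 to GV9. In MII it was at 56.48 to 204.9 CPM (median 100.8). GV7 to GV9 all lay above GV1 to GV6 and inside the MII range, though the share of all genes so placed was not computed. Its ratio of 1.32 (spread 2.19) became 2.35 with GV1 to GV6 alone and −0.10 with GV7 to GV9 alone. H4f16 was higher in MII whichever GV set was used. It was at 1.642 to 134.2 CPM in GV1 to GV6 (median 21.94). GV7, GV8 and GV9 held 47.96, 45.41 and 42.13 CPM, and the MII eggs 46.17 to 114.2 CPM (median 81.04). Its ratio was 1.24 (spread 1.63), 1.25 for the first GV set and 1.05 for the other, and apart from GV4, only GV6 and GV7 reached the lowest MII value. H4c4 was lower in MII at −1.49 (spread 1.94), or −0.89 and −2.61 for the same GV sets. H4c14 was at −0.76 (spread 1.16) and at −1.02 without MII2. H4c17 was at −0.16 (spread 2.21) and at −1.24 without MII3.

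**Figure D4:**
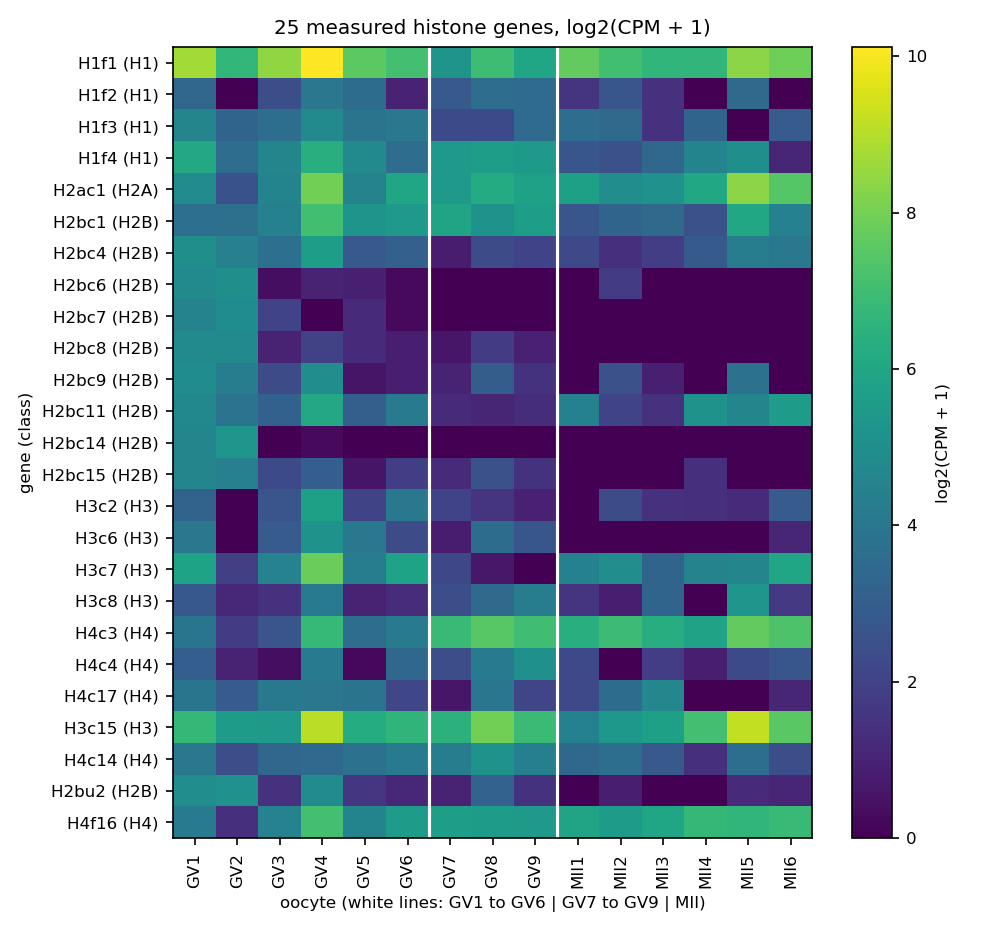
Level of the 25 measured histone genes (rows, class in brackets) in each of the 15 oocytes (columns), as log2 of CPM plus 1, from dark (0) to yellow. H1f1 in GV4 (1111 CPM) is the brightest cell, and the H2B rows H2bc6, H2bc7, H2bc8 and H2bc14 are bright in GV1 and GV2 only.

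Of the 25 measured members, 12 were at least 2-fold lower in MII, where 15.8% of all measured genes were. Those at least 2-fold higher were 2, H4c3 and H4f16, where 12.9% of all measured genes were. The median ratio was −0.99 (spread of the median 1.12), also with the 3 genes lacking MII counts set at their limits. The interquartile range of all measured genes was −0.60 to 0.57. The lower genes were mostly low in level. A member at 5 to 10 CPM in GV alone was measured only through that stage, so the filter favours members that differ. Among the 9 members at 20 CPM or more the median ratio was 0.22, with 2 at least 2-fold lower (9.78% of all such genes) and 2 higher (10.4%). Counting every member with counts, 31 of 62 were at least 2-fold lower (24.8% of all genes) and 5 higher (25.4%). Without GV1 and GV2, 8 of 21 measured members were lower (13.5% of all genes) and 0 higher (12.7%).

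The GV files changed the picture. Against GV1 to GV6, 15 of 27 measured members were at least 2-fold lower (16.6% of all genes) and 2 higher (13.3%), with a median of −1.09. Against GV7 to GV9, 8 of 19 were lower (21.1%) and 6 higher (21.5%), with a median of −0.10. Between the GV sets, 16 of 29 members were at least 2-fold lower in GV7 to GV9 (20.2%) and 5 higher (18.1%), with a median of −1.39. This median was farther from 0 than that between the stages. The comparisons with MII share the MII eggs. By CPM of single oocytes, 1 member, H2bc8, was lower in every MII egg than in every GV oocyte (1.32% of all genes), and 0 were higher in every MII egg (0.768%). H2bc8 was at 0 in all 6 MII eggs and at 0.5102 to 27.91 CPM in GV, and 3 counts over the MII eggs would be 0.5052 CPM.

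**Figure D5:**
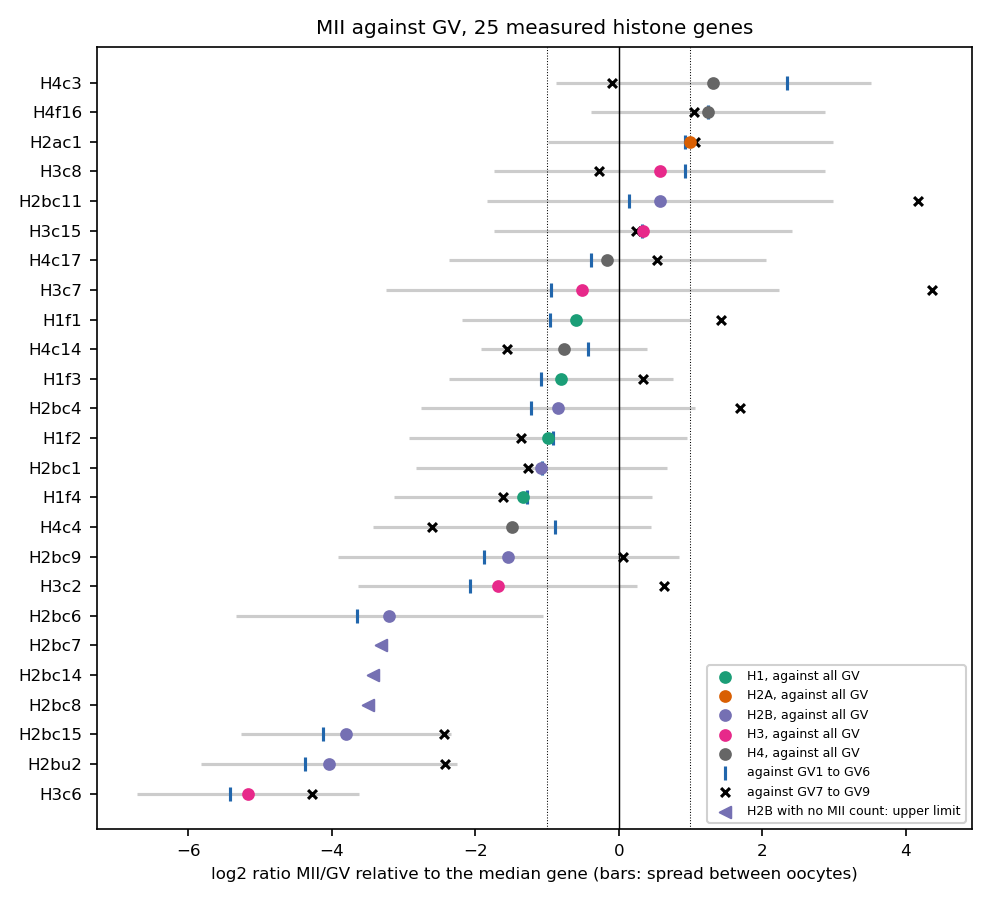
Log2 ratio of MII to GV relative to the median gene (horizontal axis) for the 25 measured members: circles against all GV oocytes with bars for the spread between oocytes, vertical ticks against GV1 to GV6 and crosses against GV7 to GV9. Triangles are limits for H2bc7, H2bc8 and H2bc14, which have no MII count, and dotted lines mark 2-fold. H2bc11 and H3c7 lie near 0 against all GV and at 4.17 and 4.37 against GV7 to GV9.

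GV4 was high for many members. It was above every other GV oocyte for 14 of 25 measured members, against 21.3% of all measured genes. These were all 4 H1 genes, H2ac1, 4 of 10 H2B, 4 of 5 H3 and 1 of 5 H4. Its oocyte markers summed to 28785 CPM, close to the 28542 CPM of GV1, in a GV range of 7164 to 28785 CPM. Its cumulus and granulosa markers, at 103.5 CPM with 7 of 18 detected, were the lowest in GV. Among MII eggs, MII5 was highest for the sum of all members, and its theca and stroma markers summed to 51.23 CPM, all from the collagen gene Col1a1, against 0 to 3.454 CPM in the other eggs. The part of these values in the histone levels was not tested.

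Few genes that act on histone mRNA were 2-fold apart between the stages. Of 22 genes for transcription, processing, translation and decay of these mRNAs, 20 were measured. Of these, 2 were at least 2-fold lower, where 15.8% of all measured genes were, and 1 was higher, where 12.9% were. Their ratios ran from −4.16 to 1.17, with a median of −0.01. Slbp, the stem-loop binding protein, was at 59.55 to 395.8 CPM in GV and 128.1 to 432.8 CPM in MII, with a ratio of 0.55 (spread 0.84). Upf1, an RNA helicase of histone mRNA decay, was the most abundant at 350.3 and 406.3 CPM. The lowest ratio was that of Tut4, a terminal uridylyltransferase, with 236 counts in GV and 1 in MII. Tut4 was measured only through its GV level of 5.483 CPM, close to the filter. Npat, the S-phase coactivator of histone transcription, was the other gene at least 2-fold lower, at −1.40 (spread 1.62). The highest ratio was that of Eri1, an exonuclease that trims the stem-loop end, at 1.17 (spread 1.65).

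Histone variants from genes outside the member list were at higher levels than most members. Of 12, 11 were measured, with a median of −0.65. Of these, 4 were at least 2-fold lower, where 15.8% of all measured genes were, and 2 were higher, where 12.9% were. H1f8, the oocyte linker histone, had 1262 CPM in GV against 659.8 CPM in MII. Per kilobase of exon this was 1051 and 549.3 CPM, above H1f1 on the same scale at 419.6 and 227.5. The lowest ratio was that of H2az1 at −1.99 (spread 1.77) and the highest that of H3f3a, encoding H3.3, at 1.28 (spread 1.27). H3f3b, which encodes the same protein, was at −1.09 (spread 1.15). Of 17 histone chaperones, 16 were measured, 0 at least 2-fold lower (15.8% of all measured genes) and 2 higher (12.9%), with a median of 0.01. Rbbp7 was the most abundant in GV (1078 CPM, and 654.9 CPM in MII) and Npm1 in MII (1093 CPM, and 618.2 CPM in GV). Ubn1 was the lowest in ratio at −0.82 (spread 2.66), and Npm3 the highest at 1.42 (spread 1.10).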

How the data were processed

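Counts were read from 1 deposited file per oocyte (9 GV, 6 MII), which lists whole-number counts per Ensembl gene ID, per the file headers. GRCm39 is the build in the submitters' processing notes, which also list STAR 2.7.10a and cutadapt 4.0. Not given in the sources used here were the program that counted reads, its gene models, whether it used strand, how it handled shared reads, and any molecular identifiers. A gene missing from a file was taken as 0.

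Symbols came from GENCODE M21 (28402 of 28785 IDs, 98.67%), and newer names from RefSeq for all 67 members. Printed coordinates are those of the older build GRCm38 and belong to the printed sequences only. Counts were summed per stage, scaled to CPM without ENSMUSG00000119584 and compared as log2 ratios with a pseudocount of 0.5, relative to the median gene at 5 CPM or more in the higher stage. The limit was 2-fold. The spread used log2(CPM + 1) per oocyte. Intervals are exact Poisson or exact Clopper-Pearson at 95%. Because each file is 1 oocyte with no mouse named, no p-value was computed. The lowest chi-square per degree of freedom over 51 pairs of oocytes of 1 stage, over genes with 10 or more counts, was 7.265, far above sampling noise.

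Members, lists and rules were chosen with earlier results of these data known. Named genes were the members at 5 CPM or more, those with 20 counts in an oocyte and the top member of each class (47, of which those outside the measured set are given by range or count), and for each list the most abundant, lowest and highest member, with Slbp always. Of the marker lists, the oocyte list had 3 of 14 members at least 2-fold lower and 1 higher in MII, cumulus and granulosa 2 and 0 of 4 measured, and theca and stroma 0 and 1 of 1 measured. Of all measured genes, 15.8% were lower and 12.9% higher by the same limit. No oviduct or blood and immune marker was measured. Motifs were searched in RefSeq promoters, 250 bases before to 50 after each start. Alternatives used edgeR 4.0.16 (TMM) and DESeq2 1.42.0 (size factors) in R 4.3.3 for scaling only. Other steps used Python 3.11.15, pandas 2.3.3, numpy 2.4.6, scipy 1.17.1 and matplotlib 3.10.9. The ratio step was tested on simulated data.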

Additional observations from a re-analysis of the deposited data

Results flagged for a closer look

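In 22 of 61 groups of oocytes, 1 oocyte lay far from the others by the gap to its nearest neighbour over the range (Dixon's 95% limit), where chance flags about 1 in 20 independent groups. These groups are not independent, since they share oocytes and the class sums hold the single genes, so the number of flags cannot be read against that rate. GV4 accounted for 13 of these, always as the highest GV oocyte. Its sum over all members was 3143 CPM against 1153 CPM in the next oocyte. By class, its sums were 1264 CPM for H1 (next 535.6), 295.2 CPM for H2A (next 82.01) and 907.1 CPM for H3 (next 280.2). Among single genes it held 1111 CPM of H1f1 (next 421.8), 247.6 CPM of H2ac1 (next 73.48) and 133.1 CPM of H2bc1 (next 58.68). It also held 67.3 CPM of H2bc11 (next 25.59), 52.13 CPM of H3c2 (next 15.67), 35.26 CPM of H3c6 (next 15.39) and 225.6 CPM of H3c7 (next 58.26). H3c15 reached 538.2 CPM (next 249.3) and H4f16 134.2 CPM (next 47.96).

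MII5 was far above the other eggs in 5 groups. These were the H3 sum at 648.0 CPM (next 253.5), H2bc1 at 64.04 CPM (next 20.85), H2bc9 at 12.81 CPM (next 4.695), H3c8 at 38.42 CPM (next 8.636) and H3c15 at 584.0 CPM (next 182.2). GV8 was the highest for H4c14 at 35.23 CPM (next 19.54). In 3 groups a single egg held every MII count, which sets the flag by construction: MII2 for H2bc6 (2.348 CPM), MII4 for H2bc15 (1.569 CPM) and MII6 for H3c6 (1.098 CPM).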

How the results depend on the processing

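No paired analysis was possible because each stage counts as 1 sample and the numbers name unrelated oocytes. The number of members at least 2-fold higher, 2 in the main analysis, was 1 without centring, 4 after thinning, 5 at 1 CPM or without a filter, 6 against GV7 to GV9 alone, 0 without GV1 and GV2, and 1 without MII5 and MII6. The number at least 2-fold lower, 12, was 5 by the median of CPM over oocytes, 25 at 1 CPM, 2 at 20 CPM and 31 without a filter. Shares of all genes are given above for the main analysis, each GV set, 20 CPM, no filter, and without GV1 and GV2. They were not computed for the other settings, so those counts have no background beside them. The list median, −0.99, was 0.22 at 20 CPM. The H1 sum, −0.68, was 0.75 against GV7 to GV9 alone. Leaving out 1 oocyte at a time gave ranges of −1.59 to −0.64 for the list median, 8 to 15 for members lower and 2 to 4 for members higher. For sums these were −0.42 to 0.44 (all), −0.95 to −0.14 (H1), 0.26 to 1.60 (H2A), −1.59 to −0.96 (H2B), −0.60 to 0.76 (H3) and 0.77 to 1.11 (H4). The log2 of the H2ac1 to H2bc1 quotient, MII over GV, was 2.08 and ranged from 1.94 to 2.39. This quotient was added after seeing the data. Of 695 values of single measured members under the alternatives, 674 moved by less than the spread. In all, 25 values in 12 members had the opposite sign to the main value. For 4 of these the main value was past 2-fold, namely H2bc9 to 0.06, H3c2 to 0.63 and H4c3 to −0.10 against GV7 to GV9 alone, and H2bc6 to 0.81 without GV1 and GV2. H2bc6, H2bc7 and H2bc14 had too few counts for a ratio against GV7 to GV9. The order of H2A and H4 also turned. Settings with H2A above H4 included those without GV4, without MII2, without MII3, after thinning and against GV7 to GV9. The cause of these changes was not tested, except that the filter sets how many members enter. The MII depth limits what can be said of members under 0.5052 CPM there.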

Other observations

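Among the 42 histone genes that were not measured, none exceeded 4.879 CPM, the level of H2bc12 in GV. Of these, 20 had no count in any MII egg, among them the 5 without counts in any oocyte. The other 15 had counts in GV only. H1f5 had 203 counts in 4 GV oocytes, H3c10 160 in 8, H2bc3 137 in 5 and H2bc22 82 in 8. A single count in an MII egg is worth more CPM than one in a GV oocyte, and 3 counts over the MII eggs equal 0.5052 CPM against 0.0697 CPM over the GV oocytes. H2ac6, H2ac20 and H2ac22 were the unmeasured H2A copies with a higher MII value. H2ac6 had 1.58 CPM in GV and 3.199 CPM in MII, from 68 and 19 counts. H2ac20 had 0.4879 and 2.189 CPM, from 21 and 13 counts. H2ac22 had 18 and 3 counts.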
